A study of Drosophila melanogaster with 8 samples.

Results

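The genes described here are 9 transcription factors that give regions of the Drosophila gut and body their identity, namely lab, Ptx1, cad, exex, GATAe, otp, abd-A, Ubx and Dll. They were taken by exact gene name from the 19299 features of the deposited RPKM table, and all 9 were found there. RPKM scales the reads of a gene by its length in kilobases and by the total assigned in that sample, per 1000000. Of the 9 factors, 7 had a mean of at least 0.1 RPKM over the 8 samples and were tested, whereas otp and Dll lay below that level and are given as read counts. The question was whether these factors, taken as marks of gut regions, differed between the samples.

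The tested samples came from midguts of female flies of the genotype labelled WT, aged 40 to 50 days and fed 10 µM quercetin (Que), a plant flavonoid. The 4 samples set against them came from flies of the same sex, genotype label and age that were fed the solvent DMSO. RNA of 200 pooled midguts made up each sample, 4 per group, so differences between single flies were not measured. Feeding in the ageing experiments of the study began at day 26 and lasted 14 days, and this schedule is not stated for the sequenced flies themselves.

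The fly midgut is a tube of regions that differ in cell shape, acidity, enzymes and stem cell behaviour. Each region expresses its own combination of transcription factors, several of them of the homeobox class, in which a conserved domain binds DNA. Levels of such factors in RNA from whole midguts therefore depend both on how much of each region is in the tube and on how strongly the cells there express the gene. In bulk RNA, fewer cells of a type and less RNA per cell cannot be told apart.

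Between 27253832 and 35619139 reads were assigned to genes per sample, with a median of 31530320 in the Que samples and 33552118 in the DMSO samples. Pearson's r between samples of 1 group was 0.955 to 0.982 over the 9154 genes that averaged 1 RPKM or more. Samples differed in how their levels moved with gene length, taking levels as deviations from the mean of each gene over the 8 samples. Spearman's rho of these deviations with length, across the same genes, was −0.29, 0.44, −0.33 and −0.00 in Que 1 to 4 and −0.06, 0.43, 0.03 and 0.14 in DMSO 1 to 4. Longer genes were thus relatively high in Que 2 and DMSO 2 and low in Que 1 and Que 3. The enterocyte genes for digestive trypsins (alphaTry, betaTry) and Jon65Aiii were among the most abundant markers, with a summed level of the enterocyte list of 8652 to 10748 RPKM in Que and 7001 to 8677 RPKM in DMSO samples. The hindgut gene byn had 0 to 5 reads in every sample. The other tested genes of the hindgut list, drm (55.7 to 66.8 RPKM in Que and 49.9 to 80.0 RPKM in DMSO samples) and bowl (on average 11.4 RPKM in Que and 12.1 RPKM in DMSO samples), were clearly detected, so that list does not give 1 answer on hindgut tissue.

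The 9 factors spanned a wide range of levels. GATAe, a GATA zinc finger factor of endoderm differentiation, was the most abundant, and its lowest sample was above the highest sample of exex. The mean level of GATAe was 2.20 times that of exex, a homeobox factor of the HB9 family known for its role in motor neurons. The mean of exex was 1.28 times that of Ptx1, a homeobox factor of the Pitx family. The ranges of exex and Ptx1 overlapped, but exex was the higher gene in 8 of 8 samples.

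Ptx1 was in turn 1.11 times the level of cad, the fly Cdx homolog, which patterns the posterior gut and in the adult gut restrains antimicrobial peptide genes. Ptx1 was above cad in only 6 of 8 samples, so their order was not settled beyond their spread. The mean of cad was 4.83 times that of lab, the Hox gene required for the acid-secreting copper cells of the middle midgut, with no overlap. The mean of lab was 8.23 times that of abd-A, again with no overlap. Next came Ubx, which abd-A exceeded by 1.18 times on average and in 5 of 8 samples. Dll and otp, at the low end, were near the limit of 3 reads. That limit corresponds to 0.0842 to 0.110 reads per 1000000, depending on the sample.

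**Figure D1:**
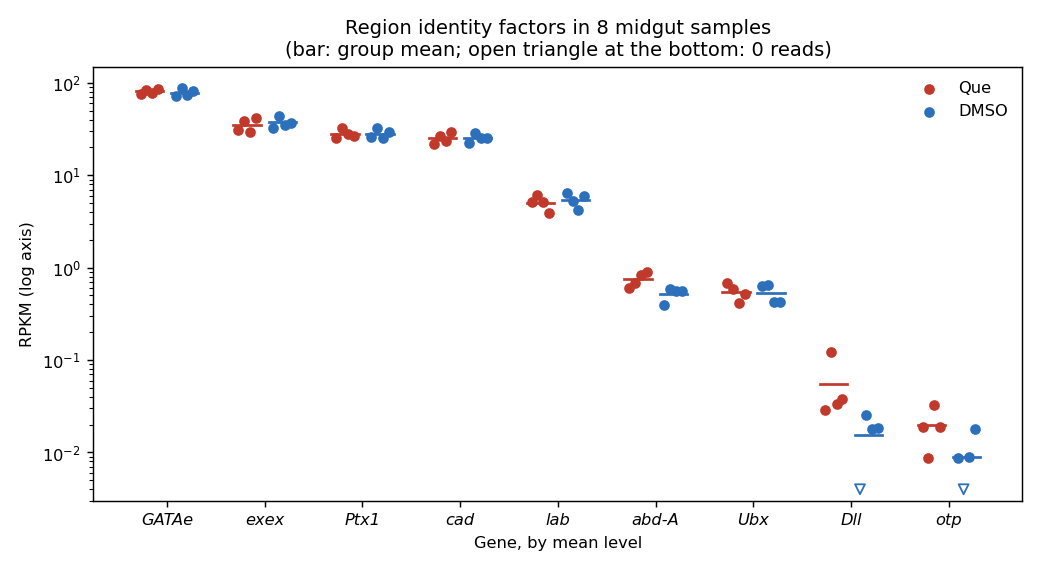
RPKM (log axis) of the 9 factors, ordered by mean level, in the 4 Que samples (left of each pair) and the 4 DMSO samples. Points are samples and bars are group means. Levels run from GATAe at 71.5 to 87.2 RPKM down to otp. The groups overlap for every factor except abd-A and Dll, and Dll had only 0 to 14 reads per sample.

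No factor changed with quercetin at an adjusted p under 0.05 (limma with Benjamini-Hochberg adjustment over 13249 genes). None did at an unadjusted limma p under 0.05 either. Across all genes tested, 0.00% passed the adjusted threshold and 3.62% the unadjusted one, 1.68% as higher and 1.93% as lower with Que. The smallest adjusted p over all genes was 0.0905. The fold changes of the 7 tested factors lay between −0.11 and 0.45 on the scale of log2(RPKM + 0.1), on which the change of low genes is understated, and the median over all genes was −0.02. Labels do not say how the pools were raised, so p-values measure only the spread between these samples.

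Of the 9 factors, lab is the one whose adult midgut expression is tied to the copper cell region. Its level was 5.18, 6.08, 5.11 and 3.87 RPKM in Que 1 to 4, against 6.46, 5.27, 4.16 and 5.98 RPKM in DMSO 1 to 4. The lowest sample was a Que sample (Que 4) and the highest a DMSO sample (DMSO 1), but the groups overlapped over most of their range. It averaged 5.06 ± 0.905 RPKM in the Que group, against 5.47 ± 0.998 RPKM in the DMSO group (SD, n = 4 each). The log2 fold change was −0.11 (SE 0.18, 95% confidence interval −0.51 to 0.29), with a limma adjusted p of 0.961. On a linear scale the interval reached from 0.702 to 1.23 times the DMSO level, so changes within these bounds remained compatible with the data. The gene varied 1.67-fold between its lowest and highest sample. Its SD on the log2 scale was 0.264 in Que and 0.272 in DMSO samples, against 0.0640 expected from counting 373 to 663 reads, so most of the spread was not counting error.

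Ptx1 had 25.4, 32.3, 28.1 and 26.7 RPKM in Que 1 to 4, against 25.7, 32.9, 25.2 and 29.4 RPKM in DMSO 1 to 4. The highest sample of each group was number 2, and the ranges nearly coincided. Quercetin and DMSO differed by a log2 fold change of −0.01 (SE 0.12, interval −0.27 to 0.26, limma adjusted p 0.999). The lowest and highest samples differed by 1.30-fold.

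The posterior factor cad had 21.9, 26.4, 23.4 and 29.5 RPKM in Que 1 to 4, against 22.6, 28.4, 25.5 and 25.3 RPKM in DMSO 1 to 4. Both the lowest sample (Que 1) and the highest (Que 4) belonged to the Que group, and the DMSO range lay inside the Que range. It averaged 25.3 ± 3.36 RPKM in the Que group, against 25.5 ± 2.39 RPKM in the DMSO group (SD, n = 4 each). For cad the log2 fold change was −0.01 (SE 0.12, interval −0.28 to 0.25, limma adjusted p 0.995).

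The homeobox gene exex had 30.6, 38.8, 29.1 and 42.0 RPKM in Que 1 to 4, against 32.7, 43.9, 35.2 and 37.2 RPKM in DMSO 1 to 4. The lowest 2 samples were Que samples and the highest was DMSO 2, with a fold of 1.51 between the extremes. For exex the log2 fold change was −0.09 (SE 0.15, interval −0.42 to 0.23, limma adjusted p 0.960).

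GATAe, which marks endoderm as a whole rather than 1 region, varied least. It had 75.6, 83.5, 78.5 and 85.6 RPKM in Que 1 to 4, against 71.5, 87.2, 73.3 and 82.5 RPKM in DMSO 1 to 4. The DMSO samples enclosed all the Que samples, and the extremes differed by 1.22-fold. Its residual SD stood at the 7.04th percentile of all genes tested, against the 49.0th percentile for lab, 20.5th for Ptx1, 20.7th for cad and 38.0th for exex. The log2 fold change was 0.04 (SE 0.094, interval −0.17 to 0.25, limma adjusted p 0.971).

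**Figure D2:**
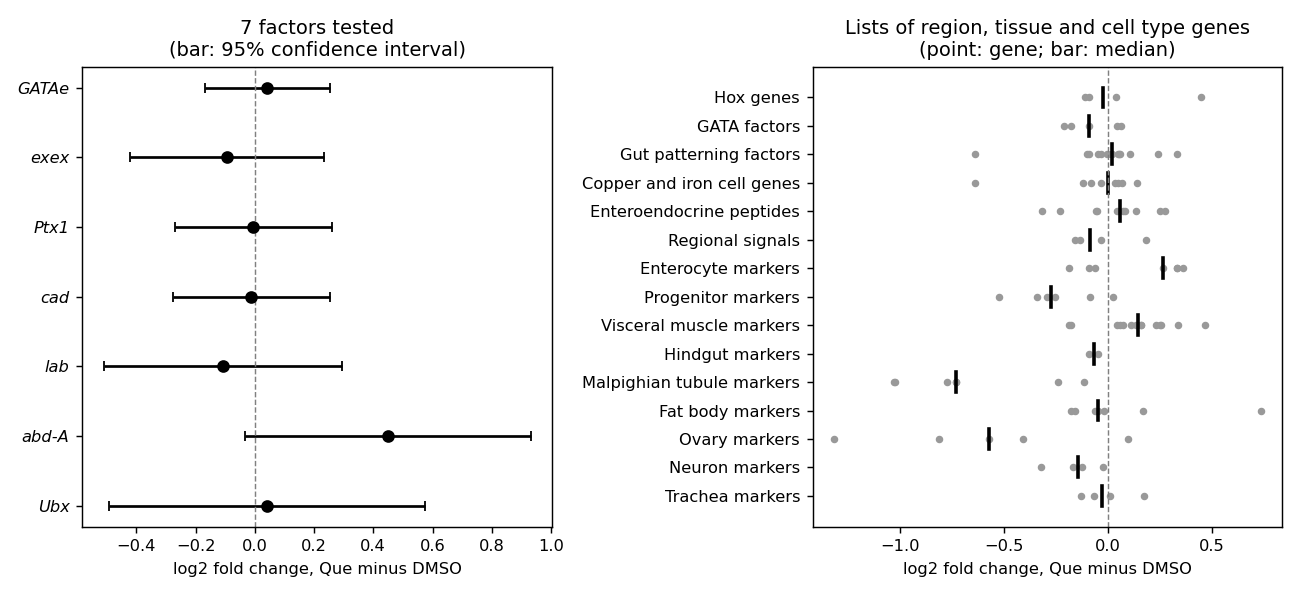
Left, log2 fold change (Que minus DMSO) of the 7 tested factors with 95% confidence intervals. Right, the same for single genes (points) and medians (bars) of 15 lists of region, tissue and cell type genes. All 7 intervals include 0, and the list that lies farthest from 0 is that of Malpighian tubule markers, with a median of −0.73.

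The Hox genes abd-A and Ubx act in the muscle sheath of the embryonic midgut, where Ubx is needed for expression of the signal dpp and abd-A for that of wg. The level of abd-A was 0.604, 0.678, 0.831 and 0.901 RPKM in Que 1 to 4, against 0.390, 0.595, 0.558 and 0.558 RPKM in DMSO 1 to 4. All 4 Que samples were above all 4 DMSO samples, a pattern that 0.876% of the genes tested showed in this direction and 1.26% in the other (2.14% in either). The gap between the groups was small, since Que 1 and DMSO 2 were nearly equal.

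These levels rest on 104 to 156 reads per Que sample and 72 to 116 reads per DMSO sample. The mean of abd-A was 0.753 ± 0.136 RPKM in the Que group, against 0.525 ± 0.0918 RPKM in the DMSO group (SD, n = 4 each). The log2 fold change of abd-A was 0.45 (SE 0.21, interval −0.03 to 0.93), that is 1.36-fold with an interval from 0.976 to 1.91. The limma p was 0.0653 before and 0.946 after adjustment. The exact permutation test on log2(RPKM + 0.1) gave a two-sided p of 0.0286, the smallest that 4 against 4 allows. With a pseudocount of 1 in place of 0.1 the log2 fold change was 0.20, and in 4 other settings, 1 of them the fit without Que 1 (0.54, limma p 0.0457), its unadjusted p was below 0.05. The change was weaker without DMSO 1 (0.34, limma p 0.163), without Que 4 (0.37, limma p 0.162) and without Que 3 (0.40, limma p 0.129). DMSO 1 was the lowest sample, at 0.390 RPKM against 0.558 to 0.595 RPKM in the other DMSO samples.

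Ubx had 0.691, 0.583, 0.411 and 0.517 RPKM in Que 1 to 4, against 0.637, 0.643, 0.427 and 0.428 RPKM in DMSO 1 to 4. The groups overlapped throughout, and the highest and lowest samples were both Que samples. For Ubx the log2 fold change was 0.04 (SE 0.24, interval −0.49 to 0.57, limma adjusted p 0.987), with 48 to 98 reads per sample. The ratio of abd-A to Ubx was 0.874 to 2.02 in Que and 0.612 to 1.31 in DMSO samples, with overlap.

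Because abd-A is a gene of gut muscle in the embryo, the visceral muscle markers are given beside it. None of 14 tested genes of that list passed an unadjusted limma p of 0.05, 12 of 14 had a positive log2 fold change, and their median was 0.15 against −0.02 over all genes. That median was 0.06 without Que 3, 0.05 without DMSO 1, 0.23 without Que 1 and 0.22 without DMSO 2, so it depended on single samples. The median deviation of the list from its mean over 8 samples was −0.26, 0.02, 0.44 and 0.15 in Que 1 to 4, against −0.28, 0.14, −0.04 and −0.11 in DMSO 1 to 4. By this median, the highest samples for muscle were Que 3 and then Que 4, with DMSO 2 nearly equal to Que 4. By summed level of the list, DMSO 2 (1393 RPKM) was above Que 4 (1333 RPKM). The highest samples for abd-A were Que 4 and then Que 3. DMSO 1 was the lowest sample for both. Que 1 was the next lowest for muscle but lay above all DMSO samples for abd-A. Among the muscle genes, the smallest p belonged to Mlc2, a myosin light chain, at a log2 fold change of 0.25 (limma p 0.0899). The other abundant members, up (troponin T, log2 fold change −0.18) and wupA (troponin I, 0.06), are sarcomere genes as well. The part of muscle in the values of abd-A was not tested.

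**Figure D3:**
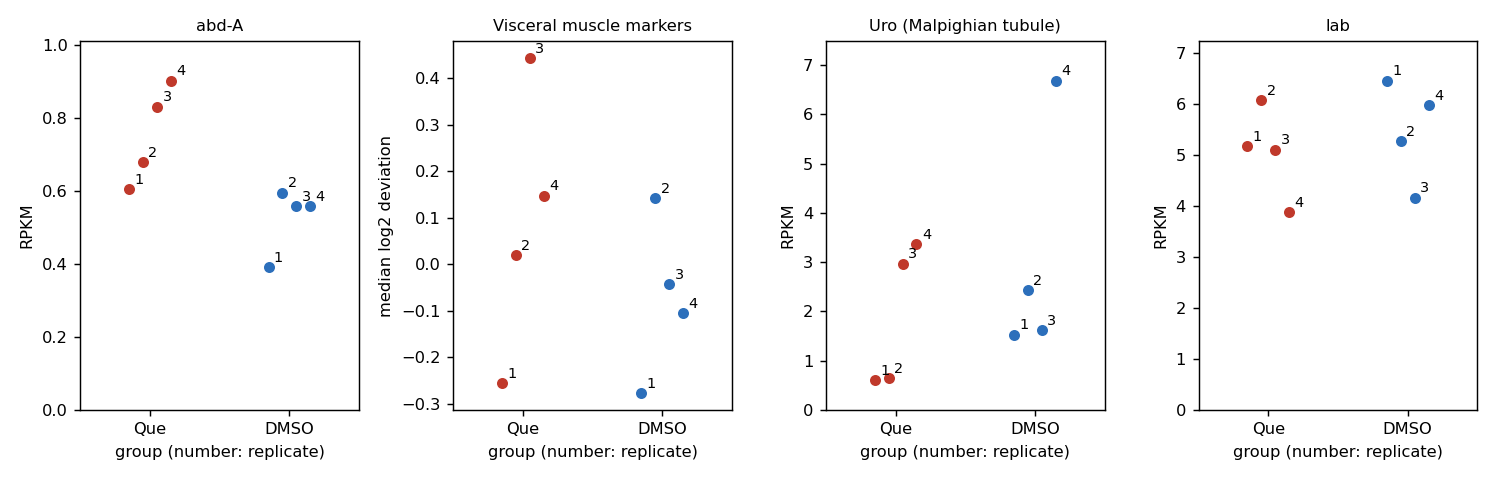
Values by sample for abd-A (RPKM), the visceral muscle list (median log2 deviation from the mean of 8 samples), the Malpighian tubule gene Uro (RPKM) and lab (RPKM), Que left and DMSO right, with replicate numbers. The 4 Que samples of abd-A lie above the 4 DMSO samples, while the other 3 panels overlap.

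Dll, best known for the growth of legs and antennae, and otp, a homeobox gene of the nervous system and embryonic hindgut, were barely detected. Dll had 3, 14, 3 and 4 reads in Que 1 to 4, against 0, 3, 2 and 2 reads in DMSO 1 to 4. Que 2 alone held 14 of the 24 Que reads, against 7 reads in all DMSO samples. The rate ratio was 3.72 with a counting interval of 1.56 to 10.2, and without Que 2 it was 2.14 (0.736 to 6.63), so its size and its interval, which then includes 1, depend on that sample. The RPKM values of the groups did not overlap and gave the smallest exact permutation p, 0.0286, yet Que 1, Que 3 and DMSO 2 each had 3 reads. Those 3 reads were 0.0288 RPKM in Que 1 and 0.0255 RPKM in DMSO 2, a difference that came from depth alone. Among the genes tested, which leave out Dll, 0.876% separated in this direction. No such share was counted for genes as low as Dll. Intervals here cover counting error only.

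In the same way otp had 2, 1, 3 and 2 reads in Que 1 to 4, against 1, 0, 1 and 2 reads in DMSO 1 to 4. No sample exceeded 3 reads, so no fold is given, and the exact permutation p was 0.114. The deposited model of otp shares 321 exon bases with CR43160 on the opposite strand, which had 0 to 2 reads. No other factor shared exon bases with another feature.

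All 9 genes have the same start and end in the deposited table as in the RefSeq annotation of Release 6 plus ISO1 MT, and each is a whole gene with its exons. Chromosome arm 3R carries lab (Dmel_CG1264, 6661427 to 6678590, minus strand), Ptx1 (Dmel_CG1447, 30912754 to 30930682, plus strand) and GATAe (Dmel_CG10278, 16009105 to 16019133, plus strand). It also carries the neighbours Ubx (Dmel_CG10388, 16656623 to 16734426, minus strand) and abd-A (Dmel_CG10325, 16807214 to 16830049, minus strand), which belong to the bithorax complex. The gene cad lies on 2L (Dmel_CG1759, 20770731 to 20783135, plus strand) and exex on 3L (Dmel_CG8254, 7948186 to 7951563, plus strand). Arm 2R carries otp (Dmel_CG10036, 20883625 to 20903414, minus strand) and Dll (Dmel_CG3629, 24814822 to 24835667, plus strand). The lengths used for RPKM were between 2378 bases for exex and 5477 bases for abd-A, against a median of 1667 bases over the genes tested.

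To set factors of different regions against each other within a sample, the 5 factors with a mean of at least 1 RPKM (GATAe, exex, Ptx1, cad and lab) were compared sample by sample. In Que 1 to 4, 0, 5, 1 and 3 of them were above their own mean over all 8 samples, and in DMSO 1 to 4 the numbers were 1, 5, 1 and 5. Que 2, DMSO 2 and DMSO 4 were thus above the mean for all 5, some by very little, and Que 1 was below it for all. The mean deviation of the 5 was −0.13, 0.13, −0.09 and 0.01 log2 units in Que 1 to 4, against −0.05, 0.17, −0.12 and 0.07 log2 units in DMSO 1 to 4. Once the dependence on gene length had been taken out of every sample, it was −0.06, 0.09, −0.01 and 0.00 in Que 1 to 4, against −0.06, 0.13, −0.14 and 0.06 in DMSO 1 to 4. The 2 samples in which longer genes were high, Que 2 and DMSO 2, were also the 2 highest for these factors, both before and after that removal. How far the length trend sets these levels was not tested beyond this removal.

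**Figure D4:**
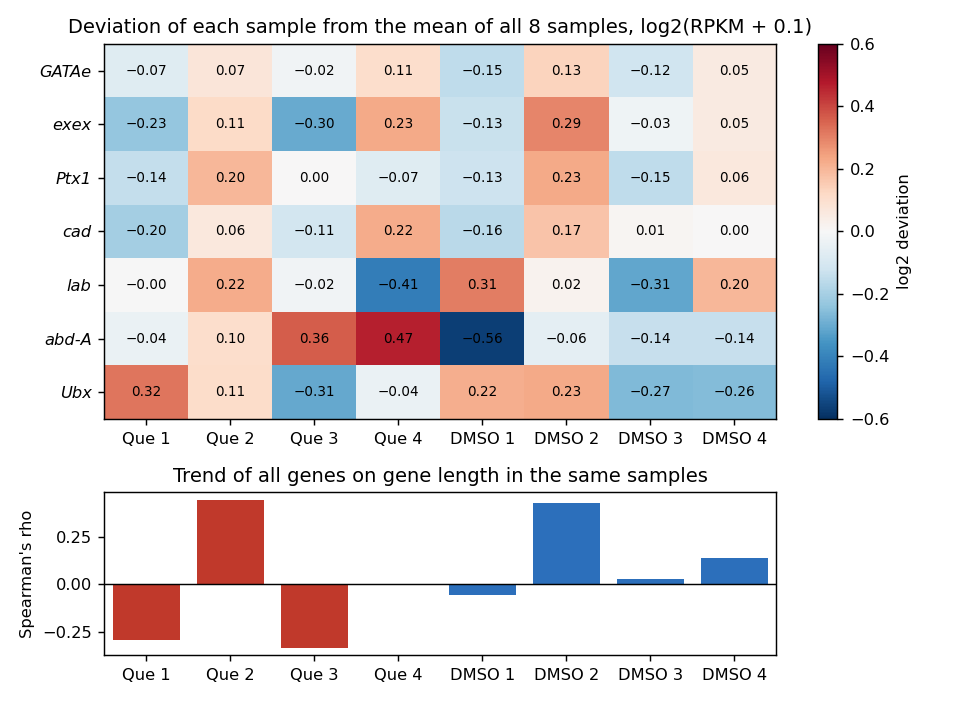
Top, deviation of each sample from the mean of all 8 samples for the 7 tested factors, in log2(RPKM + 0.1), Que samples left and DMSO samples right. Bottom, Spearman's rho of gene length with the same kind of deviation over 9154 genes, which is highest in Que 2 (0.44) and DMSO 2 (0.43).

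In relations across the 8 samples, cad and exex moved together. Of the 10 pairs of the 5 factors, cad with exex had the highest correlation, at a Pearson's r of 0.922 (exact permutation p = 0.00243, adjusted over 10 pairs 0.0243). Spearman's rho was 0.881 with an exact permutation p of 0.00724 (adjusted 0.0698). Without Que 1 and Que 4, the samples farthest from the median of cad, r was 0.908, and within groups it was 0.940. After removal of the length trend r was 0.877 and the adjusted exact permutation p 0.0543, so the pair no longer passed 0.05. With 1 sample left out r was 0.905 to 0.965, and the adjusted p did not pass 0.05 without Que 1, Que 2, DMSO 1, DMSO 2 or DMSO 4. The ratio of exex to cad stayed between 1.24 and 1.47 in Que and between 1.38 and 1.54 in DMSO samples.

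The pairs with GATAe were weaker. Its r was 0.801 with cad, 0.774 with Ptx1 and 0.756 with exex, with an adjusted exact permutation p of 0.0929 for each. Spearman's rho was 0.786 in all 3 pairs (adjusted exact permutation p 0.0698). Without the 2 farthest samples, r was 0.786 for cad, 0.656 for Ptx1 and 0.828 for exex. After removal of the length trend it was 0.565, 0.680 and 0.326 in the same order. For Ptx1, r was 0.572 with exex and 0.509 with cad, with exact permutation p-values of 0.143 and 0.197 (adjusted 0.287 and 0.328).

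The middle midgut factor lab followed none of the others. Its r with cad, the posterior factor, was −0.457 (exact permutation p = 0.255, adjusted 0.365) and rho was −0.33. Without Que 4 and DMSO 3, r for this pair was 0.00565, while with any 1 sample left out it was −0.561 to −0.110. With the length trend removed it was −0.635 (exact permutation p = 0.0857, adjusted 0.286), so the pair did not pass the test either way. Que 4 had the lowest lab together with the highest cad, and DMSO 3 had the next lowest lab with a middling cad. The other pairs of lab had r of 0.380 with Ptx1, −0.202 with exex and −0.126 with GATAe (exact permutation p-values 0.348, 0.620 and 0.751).

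**Figure D5:**
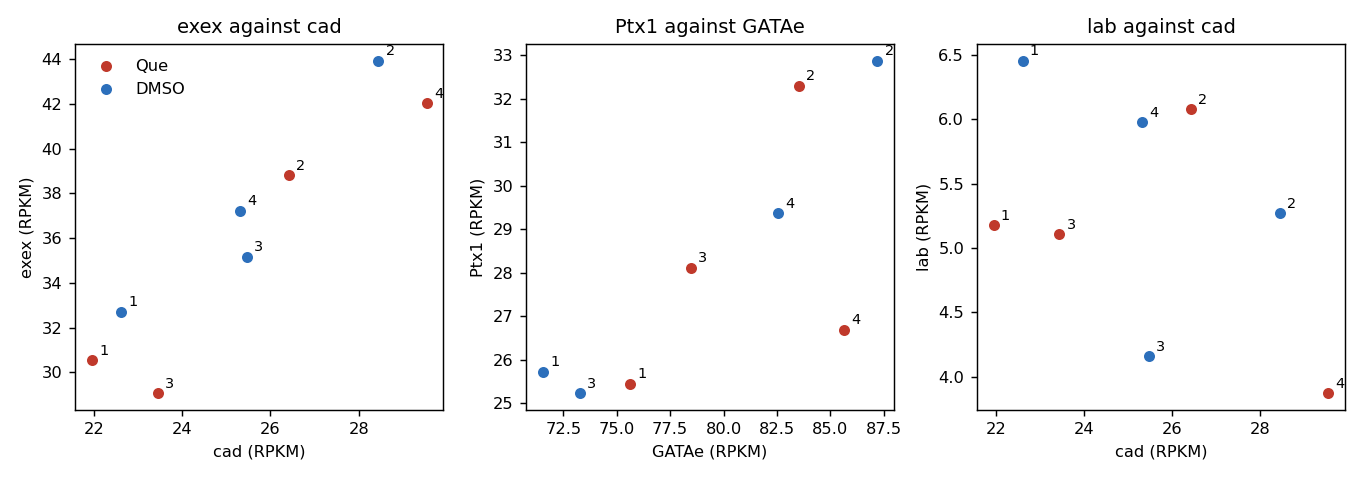
RPKM of exex against cad, Ptx1 against GATAe and lab against cad in the 8 samples, Que and DMSO in separate colours and with replicate numbers. The cad and exex points lie along a line (r = 0.922), those of lab and cad do not (r = −0.457), and Que 4 is the sample with the lowest lab and the highest cad.

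Ratios between factors are taken within a sample, where depth cancels. Expression per cell and the trend on gene length need not cancel, so a ratio is not a measure of region size alone. The ratio of lab to cad, middle over posterior, was 0.236, 0.230, 0.218 and 0.131 in Que 1 to 4, against 0.286, 0.185, 0.163 and 0.236 in DMSO 1 to 4. Que 4 was lowest and DMSO 1 highest, and the other 6 samples of both groups were intermixed. The ratio of Ptx1 to cad was 1.16, 1.22, 1.20 and 0.904 in Que 1 to 4, against 1.14, 1.16, 0.991 and 1.16 in DMSO 1 to 4. Que 4 and DMSO 3 were the only samples in which Ptx1 was below cad. Relative to GATAe, lab was 0.0452 to 0.0728 in Que and 0.0568 to 0.0902 in DMSO samples, Ptx1 was 0.312 to 0.387 in Que and 0.344 to 0.377 in DMSO samples, and cad was 0.290 to 0.345 in Que and 0.307 to 0.348 in DMSO samples. All these ranges overlapped between the groups.

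The genes most like each factor over the 8 samples were looked up among 8066 genes with enough reads, as a description. For lab they were PrBP (r = 0.911), bwa (0.890) and MFS16 (0.889), and for Ptx1 Vha100-5 (0.949), tral (0.942) and Vha55 (0.928), of which Vha100-5 and Vha55 encode subunits of the proton pump V-ATPase. For cad they were wda (0.941), Su(z)2 (0.938) and Plc21C (0.931). For exex they were Aasdh (0.956), mim (0.947) and CG33288 (0.944), and for GATAe Deaf1 (0.938), red (0.932) and mtd (0.905). The number of genes with an r above 0.9 was 1 for lab, 13 for Ptx1, 7 for cad, 19 for exex and 3 for GATAe. The trends on gene length given above, which differ between samples, were not removed for these correlations.

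Other genes of the same classes were also not called. Of 8 Hox genes, 4 were tested (lab, Antp, abd-A and Ubx), with none at an unadjusted limma p under 0.05 and a median log2 fold change of −0.03. Among 5 GATA factors none passed, the median was −0.09, and GATAd, the factor with the smallest p, had 7.19 RPKM in Que and 8.27 RPKM in DMSO samples (log2 fold change −0.21, limma p 0.257). The third GATA factor by level was srp, which acts in endoderm and blood cells.

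The 14 tested gut patterning factors had a median of 0.02 with none passing. The most abundant were drm at 60.3 RPKM with Que and 63.2 RPKM with DMSO, dve at 51.6 RPKM with Que and 50.0 RPKM with DMSO, and odd at 35.2 RPKM with Que and 33.1 RPKM with DMSO. The smallest p among them was that of ct, a homeobox factor of copper cells and Malpighian tubules. Its level was 0.128, 0.135, 0.150 and 0.379 RPKM in Que 1 to 4, against 0.231, 0.298, 0.361 and 0.526 RPKM in DMSO 1 to 4. The lowest 3 samples were all Que samples, but Que 4 was above 3 of the DMSO samples, and ct did not pass (log2 fold change −0.64, limma p 0.0936).

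Copper and iron cells are cell types of the middle midgut, so their products bear on the same region as lab. None of 8 such genes passed an unadjusted limma p of 0.05, and their median was −0.00. The smallest p was again that of ct (log2 fold change −0.64, limma p 0.0936), which, like dve, is also counted among the gut patterning factors. Vha100-4, a V-ATPase subunit, had 133 to 217 RPKM in Que and 172 to 209 RPKM in DMSO samples. The ferritin subunit Fer1HCH averaged 1324 RPKM with Que and 1238 RPKM with DMSO, and Fer2LCH encodes the other subunit.

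Of 10 enteroendocrine peptide genes, which differ in level along the gut, none passed and the median was 0.06. Tk, the most abundant, averaged 757 RPKM with Que and 727 RPKM with DMSO, followed by CCHa2 and CCHa1, and Dh31 had the smallest p (log2 fold change 0.25, limma p 0.0673). Among 4 regional signals (median −0.09, none passing) hh averaged 26.1 RPKM with Que and 29.0 RPKM with DMSO, and dpp, whose embryonic midgut expression depends on Ubx, averaged 6.80 RPKM with Que and 5.89 RPKM with DMSO. The signal downstream of abd-A in the embryo, wg, had 19 to 70 reads per sample.

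Markers of Malpighian tubules, the excretory organs attached to the end of the midgut, were measured in the same samples. All 7 tested Malpighian tubule markers had a negative log2 fold change, with a median of −0.73, and none passed an unadjusted limma p of 0.05. That median was −0.31 with a pseudocount of 1 and −0.45 with the filter at 1 RPKM. Their summed level was 9.97 to 17.4 RPKM in Que and 9.23 to 27.0 RPKM in DMSO samples. Uro, the urate oxidase of these tubules, had 0.605, 0.644, 2.97 and 3.36 RPKM in Que 1 to 4, against 1.53, 2.42, 1.61 and 6.68 RPKM in DMSO 1 to 4. The 2 lowest samples were Que 1 and Que 2 and the highest was DMSO 4, an 11.1-fold range.

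SecCl, a chloride channel gene and the most abundant of the list (446 to 1186 reads), had 8.41, 8.80, 12.8 and 8.66 RPKM in Que 1 to 4, against 5.88, 9.14, 13.1 and 16.1 RPKM in DMSO 1 to 4. Its groups overlapped, its range was 2.74-fold and its log2 fold change −0.12 (limma p 0.700). The potassium channel gene Irk3 varied 20.1-fold between samples, and the transporter gene Oatp58Dc, which had the smallest p of the list, 11.9-fold (log2 fold change −1.03, limma p 0.0534). Irk3 had only 5 to 92 reads per sample, Oatp58Dc 15 to 170 and Uro 24 to 276. For comparison, the ranges were 1.22-fold to 1.67-fold for the 5 abundant region factors in the same samples. The tubules join the gut at the border of midgut and hindgut, and the posterior factor cad, at 1.35-fold, varied less than SecCl. What part tubule tissue has in the values of ct was not tested.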

How the data were processed

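RNA-seq was made from 8 samples of pooled female midguts, 4 per group, grouped by the sample labels. The authors trimmed the reads (Trimmomatic 0.36), aligned them (STAR 2.5.3a), counted them per gene (featureCounts) and deposited the values as RPKM, beside a gene length. The annotation release and the strand setting are not given in the sources used here. RPKM times length in kilobases summed to 1000000 per sample, so reads per gene could be recovered, and 100% of values were whole within 0.01 read.

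Levels were analysed as log2(RPKM + 0.1) for 13249 genes whose mean over all samples reached 0.1 RPKM, using limma 3.58.1 in R 4.3.3 with an intensity trend, all 8 samples, no covariates and Benjamini-Hochberg adjustment over these genes. The fit was tested on simulated data. Exact two-sided permutation tests over samples, correlations and figures used SciPy 1.17.1, pandas 2.3.3, NumPy 2.4.6 and matplotlib 3.10.9 under Python 3.11.15. Confidence intervals are at 95%.

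The genes named are the 9 factors, the member with the smallest p and up to 3 with the highest level of each list, and the 3 genes of highest Pearson's r with each abundant factor. Other genes (byn, wg, osk, nub, Jon25Bii, Myo31DF, Myo61F) are named after their values were seen. The members and the 15 lists were chosen with earlier results of these data known. Alternatives were other pseudocounts, filters and scalings, limma without a trend, voom on recovered reads, the length trend removed, a replicate block and each sample left out.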

Additional observations from a re-analysis of the deposited data

Results flagged for a closer look

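In 66 groups of 4 values (levels and ratios of the factors and median deviations of the 15 lists, each in Que or DMSO samples), 2 held a sample that stood far from the other 3, where chance flags about 1 in 20 groups, or 3.3. The first was Dll in Que 2, whose gap to the next sample was 0.900 of the range of the Que group, at 14 reads against 3, 3 and 4 reads in the other Que samples. The second was the ratio of Ptx1 to cad in DMSO 3, at 0.991 against 1.14 to 1.16 in the other DMSO samples, a gap of 0.870 of the range.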

How the results depend on the processing

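Of all genes, 0 passed an adjusted limma p of 0.05 (479 an unadjusted one), 2 did with no filter on level, 3 without the intensity trend, and 0 to 2 with 1 sample left out. The unadjusted count was 315 with a filter at 1 RPKM, 1117 with a replicate block and 353 to 1170 with 1 sample left out (1170 without Que 2). No factor passed an adjusted p of 0.05 under any of 17 alternatives. At an unadjusted limma p under 0.05 there was 1 factor (abd-A) in place of 0 without the intensity trend (limma p 0.0269), with the length trend removed (log2 fold change 0.54, limma p 0.0353), with voom (0.51, p 0.0278) and without Que 1 (0.54, limma p 0.0457). The adjusted limma p of abd-A was at least 0.594 in each alternative, and with the replicate block its limma p was 0.0636. Its unadjusted limma p was 0.163 without DMSO 1, 0.162 without Que 4 and 0.129 without Que 3.

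Without 1 sample, the log2 fold change was −0.23 to 0.011 for lab, −0.074 to 0.069 for Ptx1, −0.088 to 0.054 for cad, −0.19 to −0.0090 for exex, −0.0013 to 0.094 for GATAe, 0.34 to 0.54 for abd-A and −0.059 to 0.15 for Ubx. The sign also turned for Ptx1 with median-of-ratios scaling (0.0060) and the length trend removed (0.052), and for cad with the same settings (0.00037 and 0.019). The medians of 8 lists, all within 0.1 of 0 (Hox, GATA, gut patterning, copper and iron cell, enteroendocrine, regional signal, fat body and trachea), turned sign in at least 1 setting, and that of gut patterning factors was 0.11 with the length trend removed. The cause was not tested. The number of factor pairs with an adjusted exact permutation p under 0.05 was 1, and 0 with the length trend removed. With 1 sample left out it was 0 to 2, namely 0 without Que 1, Que 2, DMSO 1, DMSO 2 or DMSO 4 and 2 without Que 4 or DMSO 3.

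Same-numbered samples correlated at r of 0.486, 0.281, 0.0678 and 0.0148 in their deviations. With a DMSO sample of another number, r was at most −0.0549 for Que 1, −0.0297 for Que 2, 0.302 for Que 3 and 0.115 for Que 4. Que 1 and Que 2 were thus closest to their own number, whereas Que 3 and Que 4 were closer to another. The numbers were therefore not taken to pair all samples, and whether any of them mark a batch was not tested. Depth limits Dll and otp to a few reads, and the intervals of the 5 abundant factors leave room for changes such as 0.702 to 1.23 times for lab. The filter at 1 RPKM removes abd-A and Ubx.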

Other observations

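Of 6 progenitor markers, 5 had a negative log2 fold change with a median of −0.27 (−0.14 without Que 3, −0.17 without Que 1 and −0.17 with a pseudocount of 1), and none passed an unadjusted limma p of 0.05. N, the Notch receptor, had the smallest p (log2 fold change −0.52, limma p 0.0894), and esg, a transcription factor of progenitors, averaged 18.5 RPKM with Que and 17.9 RPKM with DMSO. Other members by level were Sox21a and Sox100B. Of 7 enterocyte markers, betaTry passed the unadjusted threshold (log2 fold change 0.36, limma p 0.0424), beside 1.68% of all genes in this direction, and the list had a median of 0.26 (0.12 without Que 1 or without Que 3). The 4 genes with a positive value were the digestive proteases alphaTry, betaTry, Jon65Aiii and Jon25Bii. The other 3, the transcription factor gene nub (log2 fold change −0.19) and the myosin genes Myo31DF (−0.09) and Myo61F (−0.06), had negative values and did not pass.

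Of 8 ovary markers found, 5 were tested, with a median of −0.57 (−0.19 with a pseudocount of 1 and −0.37 without DMSO 1) and none passing. Vm34Ca, a vitelline membrane gene, had the smallest p (limma p 0.0760), and vas, bam and Vm26Aa were the most abundant. The oocyte gene osk had 0 reads in all 4 Que samples, against 154, 4, 4 and 2 reads in DMSO 1 to 4. Its groups thus did not overlap, as for 1.26% of genes in this direction, and it did not pass (log2 fold change −1.32, limma p 0.134). Most of its reads came from DMSO 1, and the other DMSO samples were near the limit of 3 reads. The fat body list had a median of −0.05 (to, Yp1 and Yp2 most abundant, to at log2 fold change 0.74, limma p 0.284), the trachea list −0.03 (pio, serp and verm) and the hindgut list −0.07 over 2 genes, drm and bowl, with Abd-B at 11 to 26 reads. Of the neuron list (median −0.14, −0.05 with the length trend removed and −0.07 without Que 3, none passing), nSyb was at 7.25 to 7.64 RPKM in Que and 7.85 to 8.30 RPKM in DMSO samples without overlap, as 1.26% of genes were in this direction (log2 fold change −0.12, limma p 0.185), and elav and brp were the next by level.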
